A study of Mus musculus with 20 samples.

Results

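The presynaptic vesicle release machinery was described here as 42 genes, chosen by name from the 23413 gene names in the count tables. The choice was made with earlier results of these data known. They fall into 5 classes by the role of their products, which are 6 RAB proteins and rabphilin, 12 synaptotagmins and otoferlin, 11 active-zone proteins, 6 SNAREs and complexins, and 7 synapsins and vesicle membrane proteins. All 42 passed the filter on low counts and were tested among 15660 genes. The libraries came from the frozen cortex of 20 mice with a humanized APOE4 allele knocked into the mouse Apoe locus (the allele Apoe tm1.1(APOE*4)Adiuj, on B6(SJL)). The mice were fed a control diet (CD) or a ketogenic diet (KD), in isocaloric amounts, from 10 months of age for 12 months, and were 22 months old at tissue collection. Among the females 5 were on the CD and 4 on the KD, and among the males 5 were on the CD and 6 on the KD, with 1 library per mouse. Every group carried the APOE4 allele, so no comparison with another Apoe genotype was possible. RNA was taken from a piece of about 10 mg of cortex, and which part of the cortex it came from was not given in the sources used here.

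Neurotransmitter leaves a neuron when a vesicle fuses with the membrane of the nerve terminal. RAB3 proteins and synapsins hold and guide vesicles, active-zone proteins such as RIM, MUNC13, bassoon and piccolo dock and prime them, and the SNARE proteins SNAP25, syntaxin and synaptobrevin pull the membranes together. Calcium entering the terminal binds synaptotagmins, which trigger the fusion with the help of complexins. Most of these proteins come in families whose members are used in different brain regions and cell types, so their transcripts differ between cortex, striatum and hippocampus.

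Counts per library summed to between 12207161 and 29109990. The library numbers form 2 series of 10, and each group has libraries in both. The series did not overlap in depth, with sums of at least 21015275 in series 1 and at most 17697342 in series 2. In all 41 pairs of the same group the counts were further apart than sampling noise allows (chi-square between 6.90 and 109 per degree of freedom). Xist, which is expressed from the inactive X chromosome of females, was at 319 CPM (a gene's count scaled to the library's total) or more in each female and at most 7.59 CPM in each male. The Y-linked gene Ddx3y was at 14.0 CPM in CD female E228, at most 1.64 CPM in the other females and at least 164 CPM in the males. Transcripts of mouse Apoe, whose locus was replaced, were at 1.33 to 3.34 CPM.

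Several libraries stood apart in the tissue they hold. The 12 striatal marker genes summed to 2903, 2572 and 3292 CPM in KD females E61, E68 and E207, to 1183 CPM in CD female E249 and to 4016 CPM in KD male E59. In the other 15 libraries they summed to between 264.3 and 701 CPM, and the fourth KD female, E227, had 378 CPM. The 10 markers of cortical excitatory neurons, none of which was at 0 in any library, summed to between 594 and 710 CPM in E249, E61, E68 and E207 and to at least 1049.9 CPM in the other 16 libraries. Hippocampal markers summed to 638 CPM in KD male E64 and to at most 291 CPM elsewhere, and choroid plexus markers to 2360 CPM in E59. The 5 libraries with the most striatal transcripts also held the most of 6 markers of basal forebrain cholinergic neurons (117, 138, 102, 85.9 and 54.2 CPM in E61, E68, E207, E249 and E59, and at most 6.56 CPM elsewhere). All 7 oligodendrocyte markers had positive log2 fold changes in females, none of them called, with sums of 2782 to 3371 CPM in CD and 3338 to 4368 CPM in KD females. Their sums were lowest in KD males E64 (1427 CPM) and E254 (1611 CPM) and at least 2559 CPM in the other libraries. All 7 microglial markers were positive in females too, with sums of 269 to 375 CPM in CD and 339 to 479 CPM in KD females. So were 5 of 7 astrocyte and 5 of 6 endothelial markers, and none of these was called. Of the 42 release genes, 16 had their lowest level of all libraries in E249, and 8 had their highest and 5 their lowest level in E64. The heat map of the release genes by library shows these libraries as columns of their own colour.

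**Figure D1:**
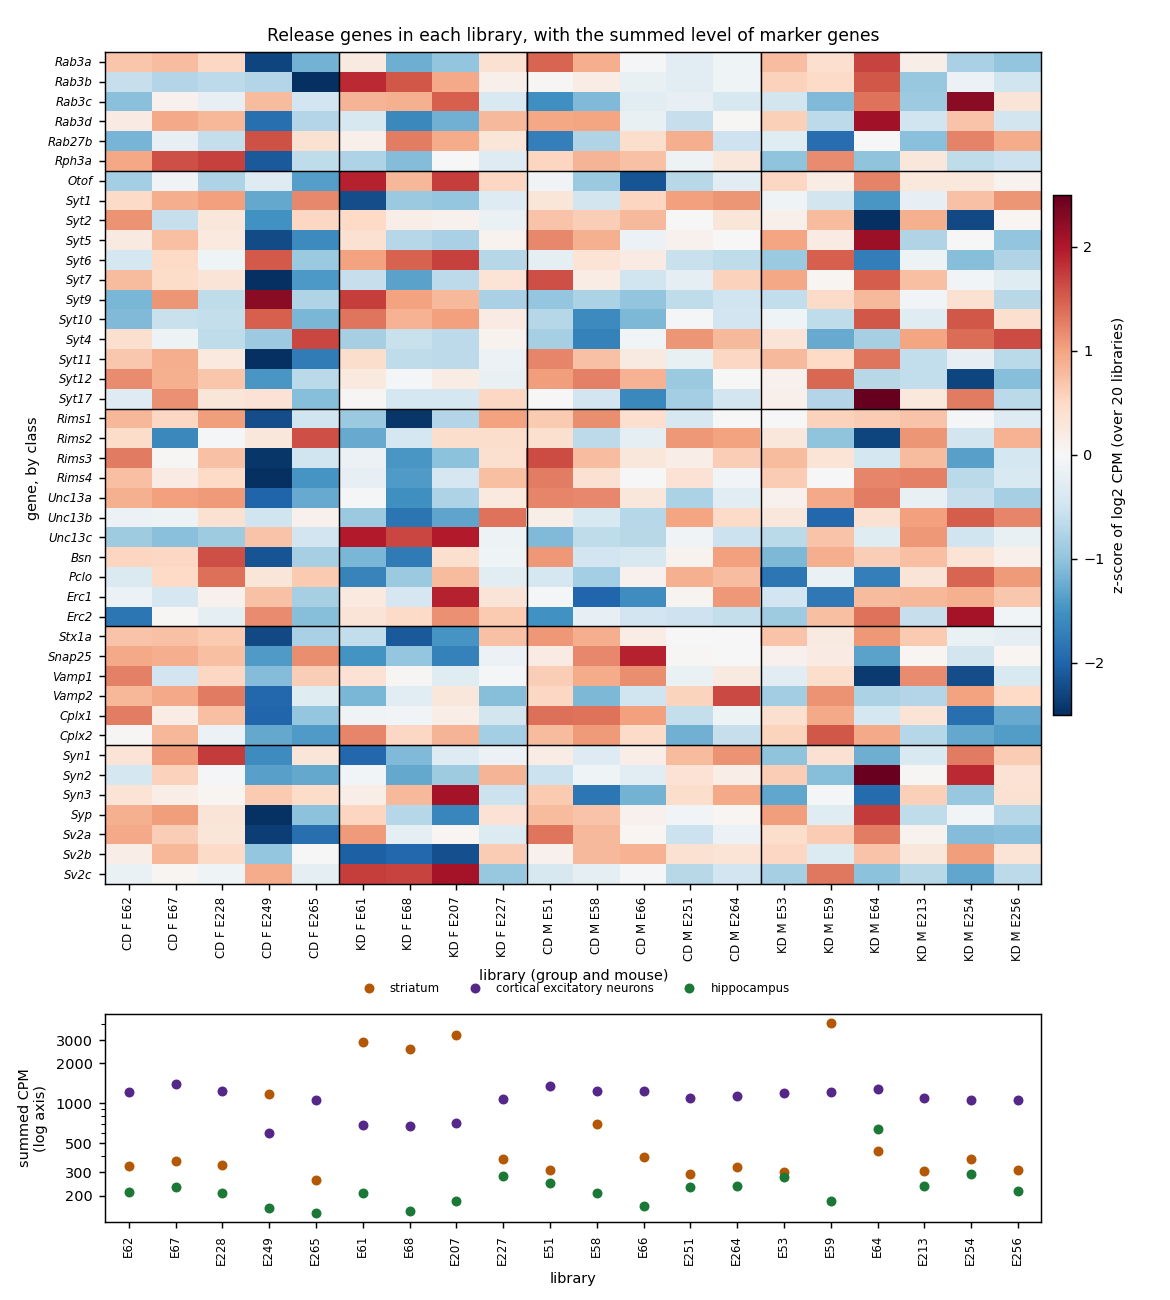
Top, z-scores of log2 CPM over the 20 libraries for the 42 release genes (rows, by class) in each library (columns, by group). Bottom, the summed CPM of 12 striatal, 10 cortical excitatory and 8 hippocampal marker genes in the same libraries on a log axis. CD female E249 holds the lowest level of 16 of the 42 genes, and KD females E61, E68 and E207 are high in striatal markers, Sv2c and Unc13c and low in Sv2b.

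On the control diet, the release genes spanned a wide range of levels per kilobase of exon. Snap25, the SNARE of the plasma membrane, had the highest level, at 655 ± 124.8 CPM per kb (SD, n = 10). Syt1, the calcium sensor of fast release, was next at 226.8 ± 27.3 CPM per kb, and the ranges of these 2 genes over the 10 CD libraries did not overlap. For every other pair of neighbours in this order the ranges overlapped. The vesicle proteins Sv2b and Syp (synaptophysin) followed at 158 ± 20.8 and 149.6 ± 25.7 CPM per kb. Otof, which encodes the calcium sensor otoferlin known from the ribbon synapses of inner hair cells, had the lowest level, at 1.03 ± 0.394 CPM per kb. By class, the median level was highest for SNAREs and complexins (78.5 CPM per kb) and for synapsins and vesicle membrane proteins (72.4 CPM per kb). It was 18.4 CPM per kb for RAB proteins and rabphilin, 14.3 for active-zone proteins and 6.36 for synaptotagmins and otoferlin. The spread between CD mice was smallest for the scaffold gene Erc1 (coefficient of variation 7.02%) and largest for Syt10 (72.9%), which CD female E249 sets.

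**Figure D2:**
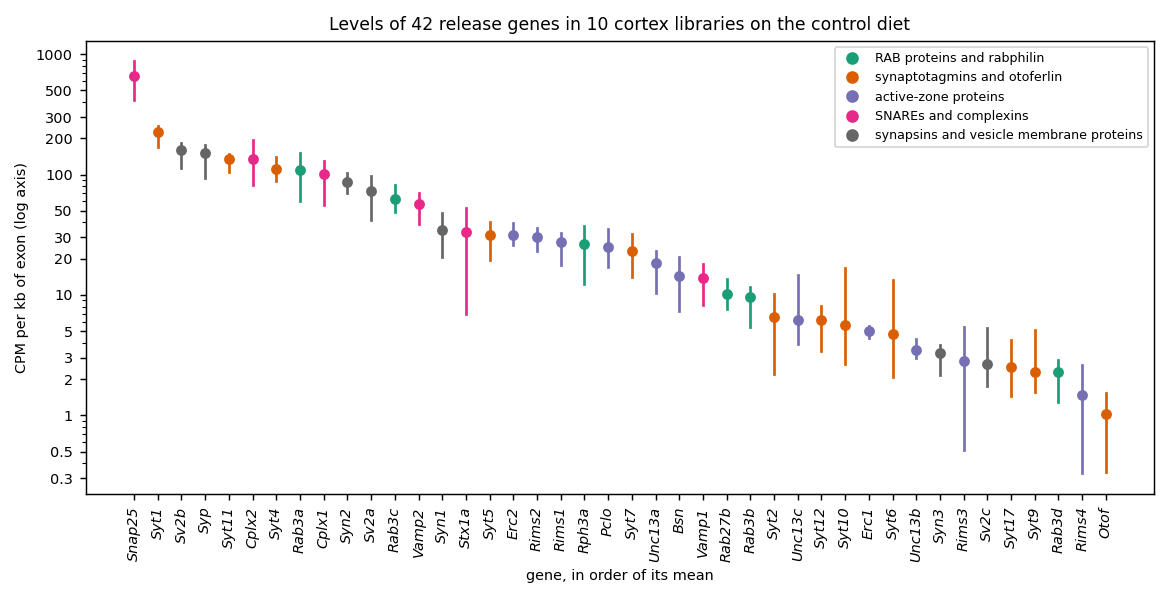
Levels of the 42 release genes in the 10 CD libraries, in CPM per kilobase of exon on a log axis. Points are means and lines run from the lowest to the highest library, and colours mark the class. Snap25, at 655 CPM per kb, lies above every other gene, and Otof, at 1.03 CPM per kb, is last.

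The effect of the diet was tested in each sex, since the study asked whether females and males respond differently to the KD. A gene was called when edgeR's quasi-likelihood test gave a false discovery rate (FDR) of at most 0.1, after Benjamini-Hochberg adjustment over all genes, and a change of at least 1.5-fold. In females 2 of the 42 release genes were called, Otof and Rab3b, both higher on the KD, beside 0.0447% of all genes tested. The gene lists were chosen with earlier results of these data known. Here and below, a share of listed genes beside that of all genes is therefore no evidence that the diet acts more on them. At an unadjusted p under 0.05, 4 release genes were higher on the KD (Rab3b, Otof, Unc13c and Sv2c; 5.86% of all genes) and 5 were lower (Syt1, Pclo, Snap25, Syn1 and Sv2b; 5.5% of all genes). Of the 42, 14 had a positive and 28 a negative log2 fold change, with a median of -0.11, beside 0.01 for all genes. In males 0 release genes were called by edgeR's quasi-likelihood test or by DESeq2, as was the case for all genes (0%). At an unadjusted p under 0.05, 3 were higher in males (Otof, Syt10 and Syt17; 2.37% of all genes) and 0 lower (1.19% of all genes), and the median over the 42 was -0.02. In bulk tissue, fewer cells of a type and less RNA per cell cannot be told apart, and this holds for every difference given here.

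**Figure D3:**
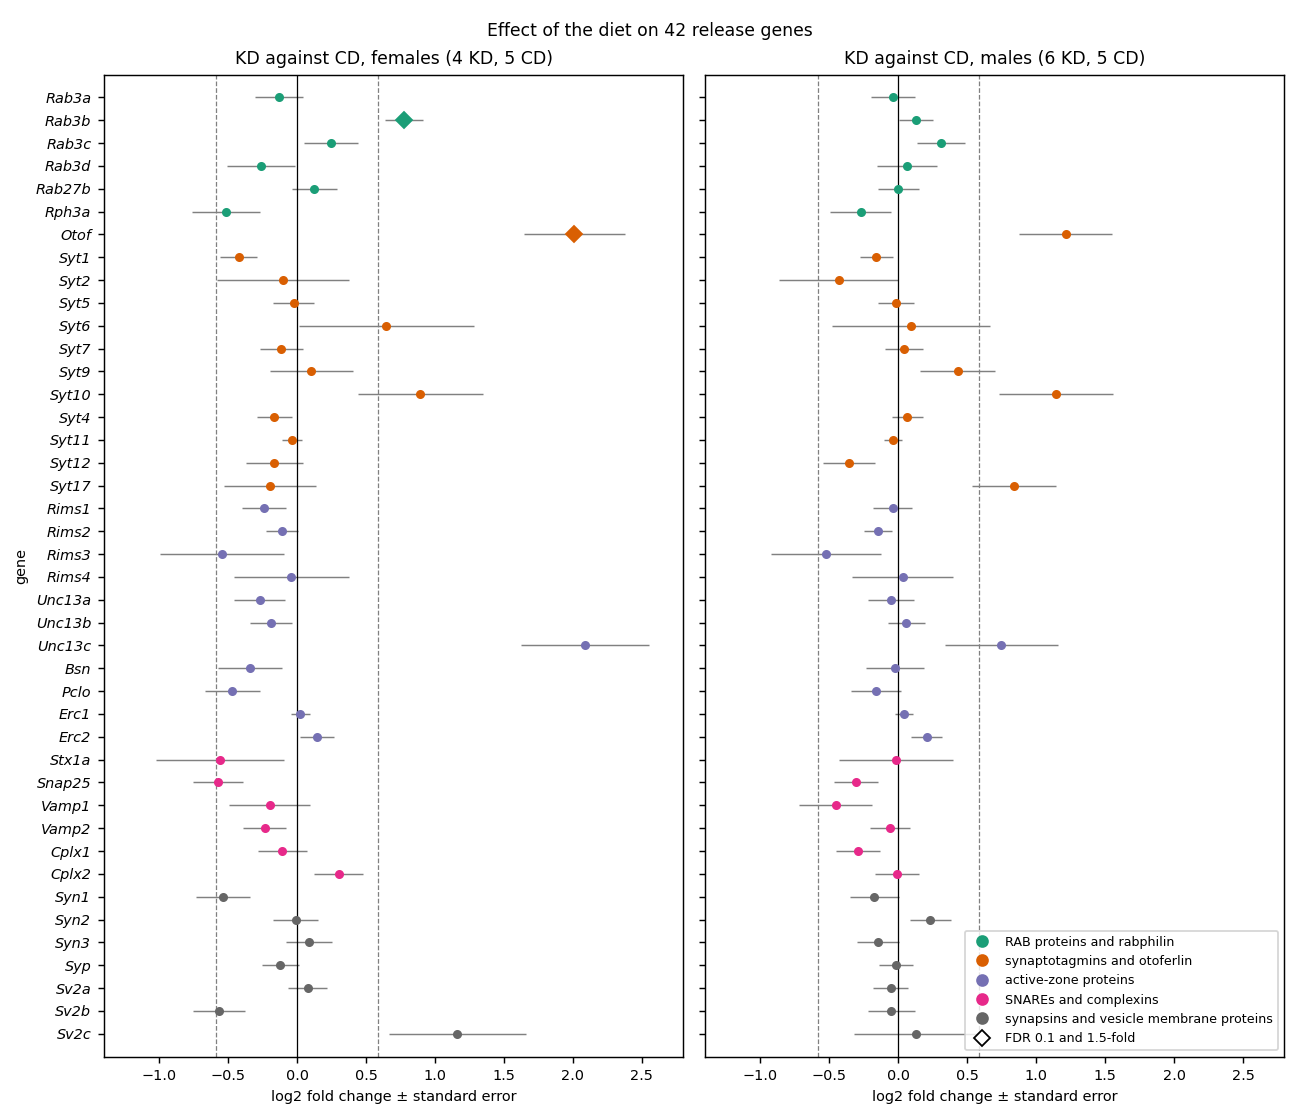
log2 fold change of KD against CD with its standard error for the 42 release genes in females (left) and males (right), coloured by class. Dashed lines mark a 1.5-fold change and diamonds the genes called at an FDR of 0.1. Rab3b and Otof are called in females, and no gene in males.

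Below, values are listed in the order E62, E67, E228, E249 and E265 for CD females, E61, E68, E207 and E227 for KD females, and E51, E58, E66, E251 and E264 for CD males. KD males are given as a range with the median. Beside each fold change with an unadjusted p under 0.05 in a sex stand its values within library series 1 and series 2, fitted alone. Within series 1, striatal markers summed to 2903 and 2572 CPM in KD females E61 and E68. In CD females E62 and E67 they summed to 332 and 363 CPM. Diet and striatal content therefore cannot be told apart in the series 1 values of females. Coordinates are those of GENCODE on GRCm38.

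Among the RAB proteins, which are small GTPases that tether vesicles, Rab3b (chr4:108879063-108943324, plus strand) was the gene called in females. RAB3B is one of 4 RAB3 paralogues of the vesicle surface. Its promoter window of 250 bases before to 50 after the start, chr4:108878820-108879119 on the plus strand of RefSeq GRCm38.p6, is shown because the gene was called, with a half-site of the cAMP response element (TGACG) in capitals.
Rab3b: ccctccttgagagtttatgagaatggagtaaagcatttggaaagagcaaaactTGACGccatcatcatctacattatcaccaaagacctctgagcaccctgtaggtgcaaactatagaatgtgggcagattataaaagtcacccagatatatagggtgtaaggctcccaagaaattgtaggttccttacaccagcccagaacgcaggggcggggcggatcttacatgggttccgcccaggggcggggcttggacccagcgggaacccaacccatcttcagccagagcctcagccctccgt
In CD females Rab3b was at 32.8, 31.4, 32.0, 31.4 and 19.1 CPM, and in KD females at 65.1, 59.6, 50.3 and 40.1 CPM. The 4 KD females were above all 5 CD females. KD female E227, which has few striatal transcripts, was the lowest of the KD females. CD female E249, which has many, was within the range of the other CD females. The part of striatal content in the difference was not tested beyond the values given here. The log2 fold change of Rab3b came to 0.77 (edgeR's quasi-likelihood test, standard error 0.138, adjusted p 0.0626), a 1.71-fold difference. It was 0.92 within series 1 and 0.65 within series 2. In CD males it was at 38.9, 40.7, 36.7, 35.7 and 37.5 CPM and in KD males it ranged from 29.6 to 59.6 (median 40.6) CPM. The male groups overlapped (log2 fold change 0.13, standard error 0.124), and E64 was the highest KD male. The call in females was lost on leaving out CD female E62, E67 or E265, KD female E61, E68 or E207, CD male E58 or E251, or KD male E53 or E254, with log2 fold changes from 0.69 to 0.77 and adjusted p from 0.10 to 0.473 in edgeR. Exons of Rab3b overlap those of 8030443G20Rik on the other strand, and since it is not given which strand was counted, the count of Rab3b is uncertain. At most 0.0628 CPM were counted on 8030443G20Rik itself.

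The other genes of this class were not called. Rab3a, the main RAB3 paralogue of brain vesicles, had log2 fold changes of -0.13 in females and -0.04 in males. For Rab3c, which is also found on synaptic vesicles, they were 0.25 and 0.31, and for Rab3d -0.26 and 0.06. Rab27b, a RAB protein of vesicle and granule transport, was at 0.13 and 0.00. Rph3a, which encodes the RAB3 effector rabphilin, had the most negative values of the class, -0.52 (edgeR, unadjusted p = 0.0525) in females and -0.27 in males. Standard errors of the class in females were from 0.138 (Rab3b) to 0.249 (Rph3a). Rph3a was called in females without CD female E249 (log2 fold change -0.70, adjusted p 0.0549 in edgeR).

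Among the calcium sensors, Otof (chr5:30367062-30461932, minus strand) was the gene whose diet groups did not overlap in either sex. Its counts were between 60 and 1353 per library. In CD females Otof was at 6.99, 12.1, 7.35, 10.2 and 4.77 CPM, and in KD females at 52.5, 23.8, 45.8 and 19.0 CPM. Males on the CD were at 12.1, 6.60, 2.70, 7.78 and 10.6 CPM and KD males ranged from 13.7 to 32.2 (median 15.7) CPM. In each sex the KD mice were all above the CD mice, and even the lowest of the 10 KD mice, at 13.7 CPM, was above the highest of the 10 CD mice, at 12.1 CPM. No other of the 15660 genes separated the 10 KD from the 10 CD mice in either direction, so that this share was 0.00639% of all genes for higher levels on the KD, whether CPM were scaled by library totals, by upper-quartile factors or by TMM factors. In females, 266 genes (1.7%) were separated with the KD higher and 63 (0.402%) with the KD lower, and the release genes among them were Rab3b and Otof, both higher. The balance of these counts depends on the scaling, since they were 176 higher and 108 lower with upper-quartile factors and 165 higher and 106 lower with TMM factors, with the same 2 release genes. In males 16 genes (0.102%) were separated with the KD higher and 18 (0.115%) with the KD lower, and Otof was the release gene among them.

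The log2 fold change of Otof in females was 2.01 (edgeR's quasi-likelihood test, standard error 0.367, adjusted p 0.0626), a 4.02-fold difference, with 1.94 in series 1 and 2.06 in series 2, called in neither. In males it was 1.21 (standard error 0.337, unadjusted p 0.00190, adjusted p 1.0 in edgeR), with 1.60 in series 1 and 0.72 in series 2. The mean of the effects in both sexes was 1.61 (edgeR, standard error 0.249, adjusted p 0.0181), and this call held when any 1 mouse was left out, with values from 1.49 to 1.71. The call in females was lost without CD female E62, E67, E228 or E265, KD female E61, E68 or E207, CD male E58 or E251, or KD male E53 or E254, with log2 fold changes from 1.77 to 2.18 and adjusted p from 0.101 to 0.527. Of the KD libraries low in striatal markers, female E227 was at 19.0 CPM, the lowest KD female, and the 5 males other than E59 were at 13.7 CPM or more. KD females E61, E68 and E207, which are high in these markers, were at 52.5, 23.8 and 45.8 CPM. The part of striatal content in the difference was not tested beyond the values given here. CD female E249, with 1183 CPM of striatal markers, was at 10.2 CPM. With the score of striatal markers as a covariate the log2 fold change of Otof was 1.80 in females and 1.19 in males, and neither passed the threshold (adjusted p 0.946 and 0.999 in edgeR). No exon of another annotated gene overlaps those of Otof.

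Syt1 (chr10:108497650-109010982), the calcium sensor of fast synchronous release, was lower in KD than in CD females before adjustment. In CD females Syt1 was at 1877, 2012, 2049.9, 1407 and 2109 CPM, and in KD females at 1206, 1492, 1481 and 1646 CPM. CD female E249 was within the range of the KD females, and the other CD females were above all of them. This gave a log2 fold change of -0.42 (standard error 0.133, unadjusted p 0.00482, adjusted p 0.230 in edgeR), with -0.56 in series 1 and -0.32 in series 2. CD males were at 1820.5, 1610.5, 1894, 2051 and 2081 CPM and KD males ranged from 1368 to 2077 (median 1694) CPM, and the groups overlapped (log2 fold change -0.16, standard error 0.119).

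Syt10 (chr15:89782393-89841860), a synaptotagmin linked to the secretion of growth factor in the olfactory bulb, was higher on the KD in males before adjustment. In CD males it was at 8.32, 4.91, 6.49, 12.4 and 9.54 CPM and in KD males it ranged from 8.76 to 32.1 (median 14.0) CPM, so that the groups overlapped. The highest KD males were E254 (32.1 CPM) and E64 (32.0 CPM). On the log2 scale, the fold change was 1.14 (standard error 0.414, unadjusted p 0.0124, adjusted p 1.0 in edgeR), with 1.36 in series 1 and 0.85 in series 2, and 0.80 without E64. In CD females Syt10 was at 6.61, 9.12, 8.87, 31.0 and 6.43 CPM, and in KD females at 28.2, 21.5, 23.4 and 14.5 CPM. Apart from CD female E249, which was above every KD female, the CD females were below the KD females. The log2 fold change in females was 0.89 (standard error 0.455, unadjusted p 0.0641 in edgeR). Without E249 it was 1.45 and was called (adjusted p 0.0354 in edgeR).

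Syt17 (chr7:118380717-118448222), a synaptotagmin relative also called B/K protein, had log2 fold changes of opposite sign in the sexes. Males on the CD were at 14.1, 11.7, 7.58, 10.2 and 11.8 CPM and KD males ranged from 10.6 to 44.7 (median 15.2) CPM, with E64, the library high in hippocampal markers, as the highest. The log2 fold change in males was 0.84 (standard error 0.302, unadjusted p 0.0120, adjusted p 1.0 in edgeR), with 1.02 in series 1, 0.60 in series 2 and 0.43 without E64. In CD females Syt17 was at 12.4, 21.8, 15.9, 16.2 and 9.37 CPM, and in KD females at 14.2, 11.9, 11.9 and 17.2 CPM, with overlapping groups and a log2 fold change of -0.20 (standard error 0.333).

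The other 8 synaptotagmins had log2 fold changes between -0.17 and 0.65 in females and between -0.43 and 0.43 in males, each with an unadjusted p above 0.05. They include Syt2, the fast sensor of many inhibitory terminals (-0.10 in females, -0.43 in males), and Syt7, the sensor of slow asynchronous release (-0.11 and 0.04). Syt6, singled out after its values were seen, was at 52.3, 74.1, 89.0 and 14.4 CPM in KD females and at 17.6, 35.9, 22.6, 77.7 and 12.2 CPM in CD females. Its highest values were in E61, E68 and E207, in E249 and, among males, in E59 (75.9 CPM), the 5 libraries with the most striatal RNA, and its standard error in females was 0.634. Syt11, a synaptotagmin that does not bind calcium, varied least in its estimates, with log2 fold changes of -0.04 in females and -0.04 in males and standard errors of 0.0728 and 0.0657.

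Among the active-zone proteins, Unc13c (chr9:73479422-73968966, minus strand), which encodes the priming factor MUNC13-3 known from cerebellar granule cells, had the largest log2 fold change of the 42 genes in females. Its promoter window, chr9:73968988-73969287 on the minus strand of RefSeq GRCm38.p6, is shown because the gene was called for the mean of both sexes; it holds no TGACG on either strand.
Unc13c: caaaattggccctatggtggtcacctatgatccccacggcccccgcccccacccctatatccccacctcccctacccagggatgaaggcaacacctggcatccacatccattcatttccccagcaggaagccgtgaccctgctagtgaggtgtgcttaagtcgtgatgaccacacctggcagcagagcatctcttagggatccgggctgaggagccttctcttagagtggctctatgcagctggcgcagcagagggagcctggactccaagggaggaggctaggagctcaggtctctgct
In CD females Unc13c was at 39.7, 35.7, 39.9, 129 and 53.6 CPM, and in KD females at 323, 258, 320.2 and 69.1 CPM. KD females E61, E68 and E207 were above every other library, while E227 was below CD female E249. In females the log2 fold change was 2.09 (standard error 0.465, unadjusted p 0.000252, adjusted p 0.161 in edgeR), with 2.90 in series 1 and 1.33 in series 2. It was called in females with the likelihood ratio test of edgeR (adjusted p 0.00591) and with DESeq2 (adjusted p 0.0154), and in edgeR without E249 (log2 fold change 2.49, adjusted p 0.00773), without E227 (2.48, adjusted p 0.00225) or without KD male E59 (2.14, adjusted p 0.0970). CD males were at 34.2, 48.2, 46.2, 71.8 and 51.5 CPM and KD males ranged from 46.7 to 168 (median 63.8) CPM, with E213 at 168 CPM and E59 at 128 CPM as the highest. The log2 fold change in males was 0.75 (standard error 0.410). For the mean of both sexes it was 1.42 (edgeR, standard error 0.309, adjusted p 0.0783), which was called, and leaving out any 1 of 16 of the 20 mice lost this call, with adjusted p from 0.103 to 0.247. The 4 mice whose removal kept it were KD males E53 and E256, CD female E249 and KD female E227. With the score of striatal markers as a covariate the log2 fold change was 0.97 in females.

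Pclo (chr5:14514918-14863459) encodes piccolo, a very large scaffold of the active zone. In CD females Pclo was at 448, 593, 787, 557 and 623 CPM, and in KD females at 293, 372, 651 and 463 CPM. The groups overlapped, with E61 and E68 below and E207 and E227 within the range of the CD females. The values gave a log2 fold change of -0.47 (standard error 0.199, unadjusted p 0.0293, adjusted p 0.369 in edgeR), with -0.68 in series 1 and -0.30 in series 2. In CD males it was at 436, 382, 522, 672 and 647 CPM and in KD males it ranged from 279 to 808 (median 519) CPM (log2 fold change -0.16, standard error 0.179). Exons of Pclo overlap those of Gm26918 and Gm26954 on the other strand, which leaves its count uncertain.

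The other 9 active-zone genes had unadjusted p above 0.05 in each sex in the fit of all 20 libraries. Within series 1, Rims1 (-0.65, adjusted p 0.0400 in edgeR) and Unc13a (-0.65, adjusted p 0.0956) were called in females. The 2 other MUNC13 genes had log2 fold changes in females of -0.27 for Unc13a, the main priming factor of the forebrain, and -0.19 for Unc13b. Bsn, which encodes the scaffold bassoon, had -0.34 in females and -0.02 in males. The RIM genes were at -0.24 (Rims1), -0.11 (Rims2), -0.54 (Rims3) and -0.04 (Rims4) in females and at -0.04, -0.15, -0.53 and 0.03 in males. The ELKS scaffold genes Erc1 and Erc2 were at 0.02 and 0.14 in females and at 0.04 and 0.21 in males. Erc1 had the smallest standard errors of the class, 0.0691 in females and 0.0624 in males.

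Among the SNAREs, Snap25 (chr2:136713453-136782428) was lower in KD than in CD females before adjustment. In CD females Snap25 was at 4741, 4708, 4559, 2808 and 4975 CPM, and in KD females at 2758, 3107, 2647 and 3726 CPM. CD female E249 was within the range of the KD females and the other 4 CD females were above all of them. The log2 fold change was -0.57 (standard error 0.179, unadjusted p 0.00462, adjusted p 0.230 in edgeR), with -0.72 in series 1 and -0.44 in series 2. DESeq2 called it (adjusted p 0.0895), as did edgeR without E249 (-0.69, adjusted p 0.0228) or without E227 (-0.71, adjusted p 0.0451). Males on the CD were at 4034, 5019, 5911, 3877 and 3838 CPM and KD males ranged from 2857 to 4031 (median 3891) CPM, overlapping, with a log2 fold change of -0.30 (standard error 0.161). The other SNARE genes had log2 fold changes in females of -0.56 for the syntaxin gene Stx1a (standard error 0.466) and -0.20 and -0.24 for the synaptobrevin genes Vamp1 and Vamp2. In males they were -0.02, -0.45 and -0.06. The complexin genes Cplx1 and Cplx2, whose products clamp and assist the SNARE complex, were at -0.11 and 0.30 in females and at -0.29 and -0.01 in males. All of these had unadjusted p above 0.05. Stx1a depended on KD female E227, without which its log2 fold change in females was -1.42 and was called (adjusted p 0.0553 in edgeR), and it was also called within series 1 (-1.75, adjusted p 0.0332).

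Among the synapsins, which tie vesicles to the cytoskeleton, Syn1 (chrX:20860511-20921004) was lower in KD females before adjustment. In CD females Syn1 was at 111, 133, 158, 68.8 and 109.8 CPM, and in KD females at 62.5, 77.5, 93.9 and 98.5 CPM. CD female E249 lay within the range of the KD females, and the other CD females were above them. Its log2 fold change came to -0.54 (standard error 0.199, unadjusted p 0.0141, adjusted p 0.302 in edgeR), with -0.84 in series 1 and -0.29 in series 2. It was called without E249 (-0.69, adjusted p 0.0196 in edgeR). CD males were at 107, 94.1, 106, 124 and 135 CPM and KD males ranged from 75.2 to 141 (median 102) CPM (log2 fold change -0.17, standard error 0.178). Syn1 shares exon sequence with Araf on the other strand, which leaves its count uncertain. Syn2 and Syn3 were at -0.01 and 0.08 in females and at 0.23 and -0.15 in males, and the synaptophysin gene Syp at -0.12 and -0.02.

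The 3 genes of the vesicle glycoprotein SV2 family had values that differed in sign in females. Sv2b (chr7:75114894-75309262) is the paralogue with the highest level per kb in these cortices, Sv2a is the target of the antiepileptic drug levetiracetam, and Sv2c (chr13:95954594-96132577) is known for its expression in the basal ganglia. In CD females Sv2b was at 1268, 1512, 1379, 946 and 1215 CPM, and in KD females at 715, 728, 687 and 1433 CPM. KD females E61, E68 and E207 were below every other library, and E227 was within the range of the CD females. This gave a log2 fold change of -0.57 (standard error 0.187, unadjusted p 0.00696, adjusted p 0.242 in edgeR), with -0.99 in series 1 and -0.23 in series 2. It was called in edgeR within series 1 (adjusted p 0.0219), without E227 (-0.90, adjusted p 0.00221) and without E249 (-0.66, adjusted p 0.0421), and without E227 its interaction of diet and sex was called as well (-0.87, adjusted p 0.0848). In CD males it was at 1251, 1499, 1523, 1342 and 1331 CPM and in KD males it ranged from 1110.3 to 1598 (median 1361) CPM, with a log2 fold change of -0.05 (standard error 0.168). The exons of Sv2b overlap those of 1500012K07Rik on the other strand, which leaves its count uncertain. For Sv2a the log2 fold changes were 0.08 in females and -0.05 in males.

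In CD females Sv2c was at 24.3, 27.9, 25.1, 51.4 and 23.3 CPM, and in KD females at 88.3, 85.9, 113 and 14.3 CPM. KD females E61, E68 and E207 were the highest of all libraries, whereas E227 was below every CD female. On the log2 scale, the fold change was 1.16 (standard error 0.495, unadjusted p 0.0300, adjusted p 0.371 in edgeR), with 1.70 in series 1 and 0.87 in series 2, and it was 0.59 without E207. When E227 was left out it was 1.53 and was called (adjusted p 0.0581 in edgeR), and leaving out E249 also gave a call (adjusted p 0.0888). Males on the CD were at 20.5, 23.1, 26.1, 17.0 and 19.7 CPM and KD males ranged from 11.2 to 66.9 (median 16.1) CPM, where E59 alone was above the CD males (log2 fold change 0.13, standard error 0.448).

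**Figure D4:**
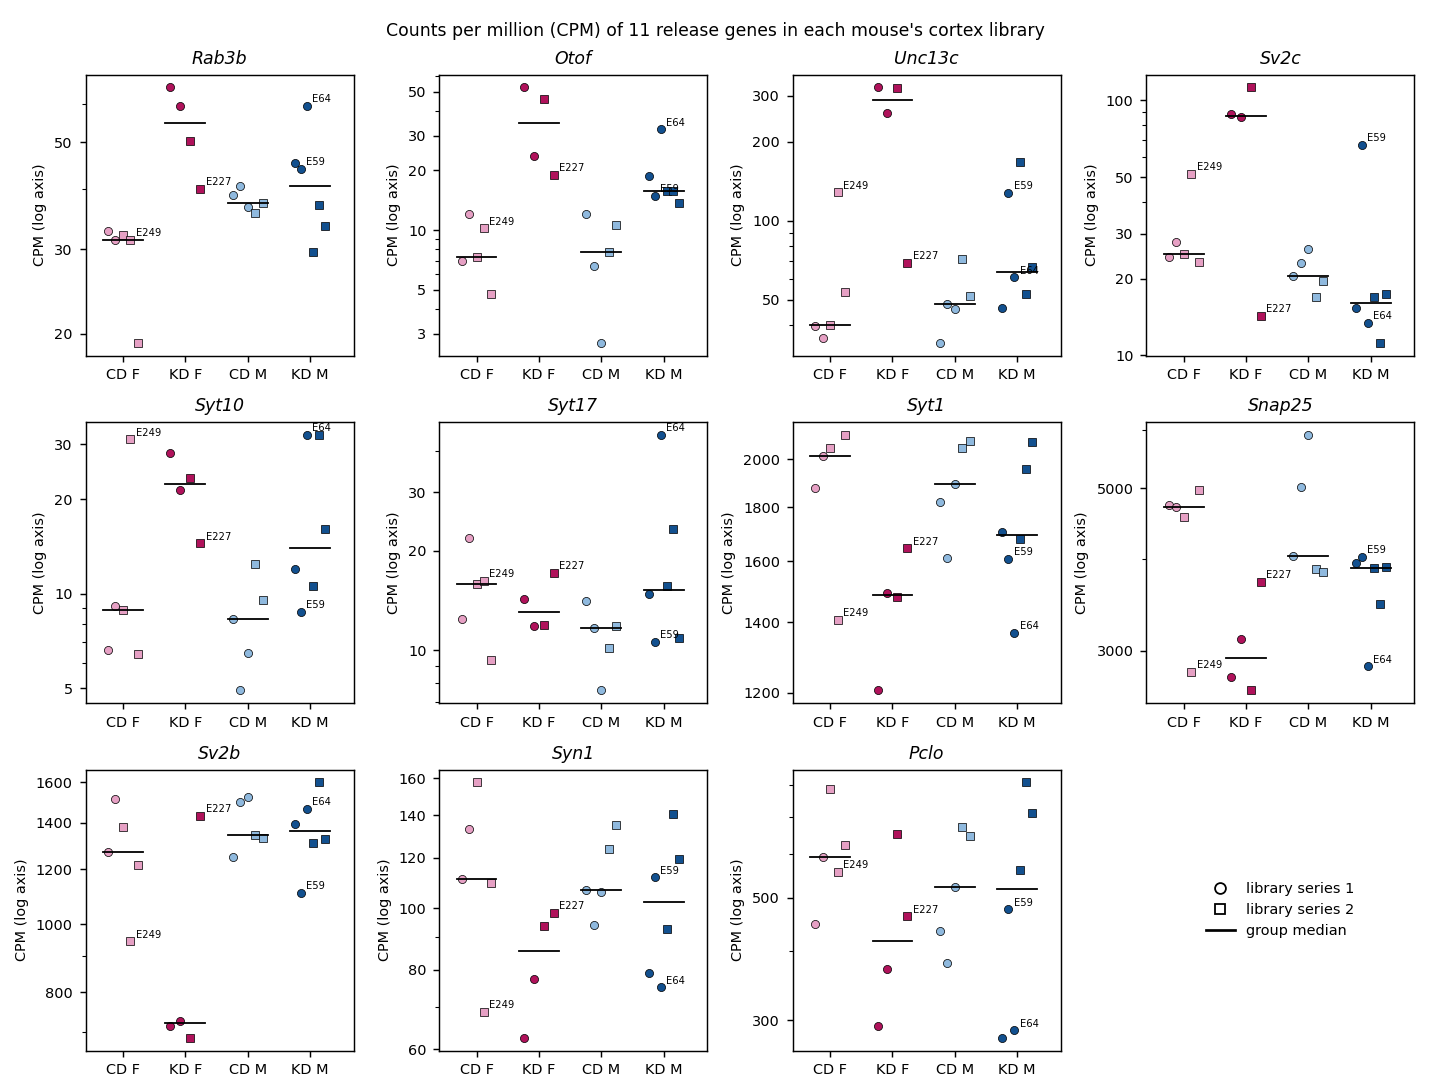
CPM on log axes of the 11 release genes that were called or had an unadjusted p under 0.05, in every library. Circles are series 1, squares series 2, and lines group medians; 4 libraries that stand apart are named. In Otof every KD mouse lies above every CD mouse, in Rab3b every KD female above every CD female, and in Sv2c the 5 highest libraries include CD female E249 and KD male E59.

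Each of these 11 genes was also tested in each sex by exact permutation of the diet labels (two-sided, log2 CPM, 22 tests, unadjusted). Since the genes had been chosen by their p in edgeR, these values are no independent evidence. In females the exact p was 0.0159 for Rab3b and Otof, which is the smallest possible and follows from groups that do not overlap, 0.0317 for Unc13c and 0.0476 for Snap25. It was above 0.05 for the other genes with an unadjusted p under 0.05 in edgeR, with exact p of 0.0635 for Syt1, 0.0794 for Sv2b, 0.127 for Syn1, 0.143 for Pclo and 0.175 for Sv2c. In males the exact p was 0.00433 for Otof, again the smallest possible, 0.0346 for Syt10 and 0.0866 for Syt17.

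The levels of several of these genes followed those of striatal markers over the libraries, and their part in the diet differences was not tested beyond the values given here. The 5 libraries with the most striatal transcripts were also the 5 highest in Sv2c and the 5 lowest in Sv2b. They held 4 of the 5 highest libraries of Unc13c, 4 of the 5 lowest of Syt1 and of Snap25, and 3 of the 5 lowest of Syn1. For Rab3b, Otof and Syt10 they held 3 of the 5 highest, which for Rab3b and Otof were KD females E61, E68 and E207. With the score of striatal markers as a covariate, the log2 fold change in females was -0.34 for Sv2c, -0.23 for Sv2b, -0.26 for Syt1, -0.41 for Snap25 and 0.64 for Rab3b. These markers were more abundant in KD females E61, E68 and E207 than in every CD female, so that diet and striatal content cannot be told apart in full by this covariate. The same 5 libraries were the highest in basal forebrain cholinergic markers. They were also the highest in 10 inhibitory neuron markers, which summed to at least 1404 CPM in them and at most 1312 CPM elsewhere. The levels of these marker lists cannot be told apart here. Without KD female E227 and CD female E249, the 2 females whose striatal content is unlike that of the rest of their groups, 14 release genes were called in females, as 12.2% of all genes were. These were Rab3b, Otof, Syt6, Syt9, Syt10, Unc13c and Sv2c with higher levels on the KD and Rab3d, Rph3a, Rims3, Stx1a, Snap25, Syn1 and Sv2b with lower levels. In that set striatal markers summed to at least 2572 CPM in the KD females and to at most 363 CPM in the CD females. Diet and striatal content cannot be told apart in these calls. Without E227 alone, every KD female was also above every CD female in striatal markers. With KD male E59 left out as well as E227 and E249, the count was again 14, and 12.9% of all genes were called.

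**Figure D5:**
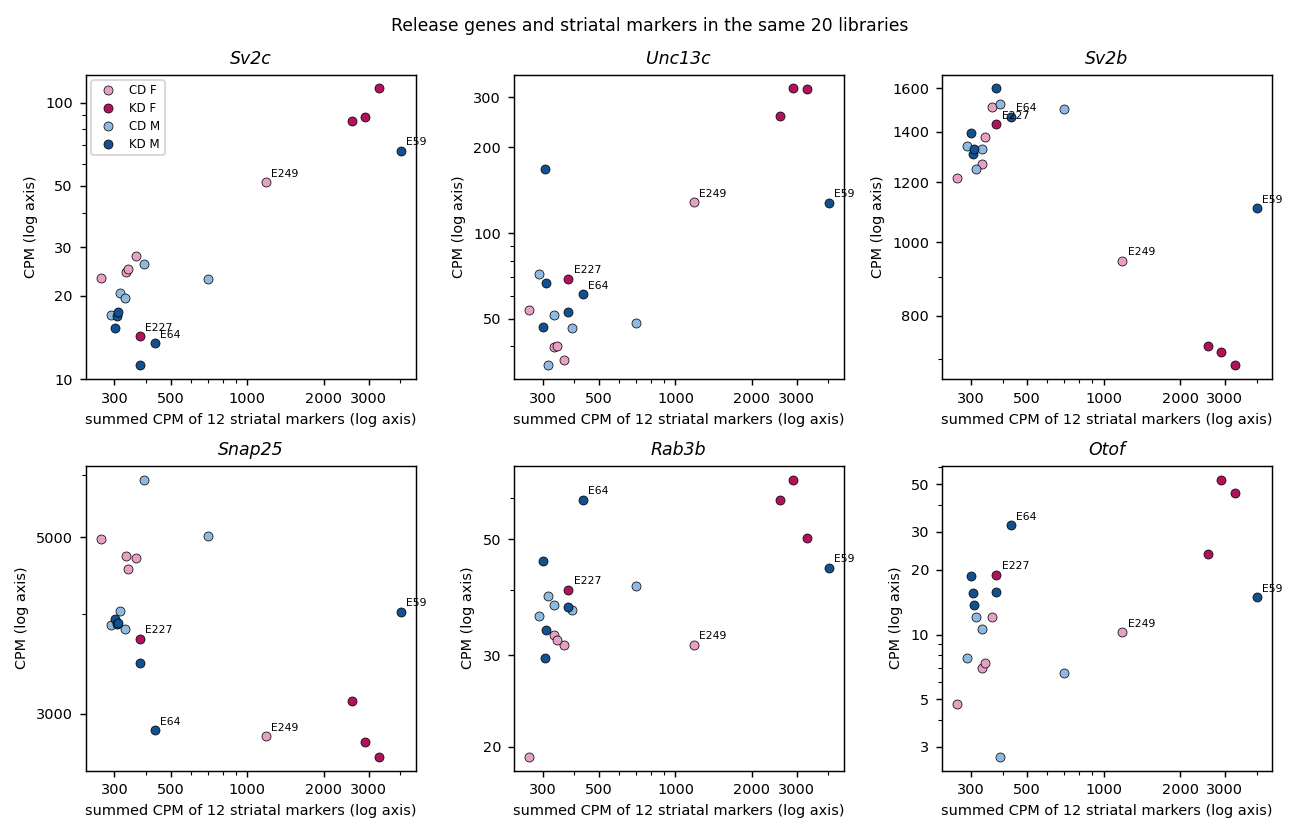
CPM of 6 release genes against the summed CPM of 12 striatal markers in the same 20 libraries, both on log axes, coloured by group. The 5 libraries above 1000 CPM of striatal markers (KD females E61, E68 and E207, CD female E249 and KD male E59) are highest in Sv2c and lowest in Sv2b, while for Otof CD female E249 and KD male E59 lie within the range of the libraries of their diet.

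An interaction term tested the difference of the diet effect between the sexes (effect in females minus effect in males). It was called for 0 of the 42 genes by edgeR's quasi-likelihood test, as for 0% of all genes. At an unadjusted p under 0.05 there were 3 release genes, beside 2.14% of all genes. These were Rab3b with an interaction of 0.65 on the log2 scale (standard error 0.186, unadjusted p 0.00253), Unc13c with 1.34 (standard error 0.615, unadjusted p 0.0420) and Syt17 with -1.04 (standard error 0.45, unadjusted p 0.0323). For Rab3b the interaction was 0.61 within series 1 and 0.77 within series 2. For Syt17 it was -0.62 without KD male E64. The interaction of Otof was 0.80 (standard error 0.489, unadjusted p 0.120), so the difference between the sexes did not pass the threshold.

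For the mean of the effects in both sexes, 2 release genes were called, Otof and Unc13c, beside 0.268% of all genes, and 11 had an unadjusted p under 0.05, beside 13.9% of all genes. Rab3b passed the FDR (adjusted p 0.0748 in edgeR) with a log2 fold change of 0.45, which is under 1.5-fold. The 8 others were Rab3c (0.28) and Syt10 (1.02) with positive values and Rph3a (-0.39), Syt1 (-0.29), Pclo (-0.31), Snap25 (-0.44), Syn1 (-0.36) and Sv2b (-0.31) with negative values. Syt10 was called for this mean without E249 (1.30, adjusted p 0.00988 in edgeR) or E227 (1.14, adjusted p 0.0468). With all mice it was called by DESeq2 (1.02, adjusted p 0.0321) and by the likelihood ratio test of edgeR (1.01, adjusted p 0.0470). It was also called within series 1 (1.49, adjusted p 0.0364 in edgeR). Between females and males on the control diet 0 release genes were called by edgeR's quasi-likelihood test, beside 0.0383% of all genes. At an unadjusted p under 0.05 there were 2 release genes, beside 2.41% of all genes. Rab3b was lower in CD females than in CD males (log2 fold change -0.30, standard error 0.132), and Syt9 was higher in females (0.65, standard error 0.289). The contrasts share libraries: the CD females enter the sex comparison and the diet comparison of females.

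Another 106 presynaptic genes were listed by role, and 102 of them were tested. They are other SNAREs and fusion factors, other calcium sensors and RAB effectors, other active-zone proteins, other vesicle proteins and transporters, and the endocytosis genes that recycle vesicles. In females 0 of the 102 were called by edgeR's quasi-likelihood test, 12 were higher and 13 lower on the KD at an unadjusted p under 0.05 (24.5% of them, beside 11.4% of all genes), and the median log2 fold change was -0.05. In males 0 were called, 4 were higher and 1 lower at an unadjusted p under 0.05 (4.90% of them, beside 3.56% of all genes), and the median was -0.01. The smallest p in females belonged to Sh3gl3 and Sh3gl2, which encode endophilins of vesicle recycling. Sh3gl3 was at 28.6 to 34.3 CPM (median 31.5) in CD females and 43.2 to 53.3 CPM (median 49.3) in KD females, without overlap. Its log2 fold change of 0.57 (edgeR, standard error 0.0877, adjusted p 0.0269) passed the FDR and not the fold threshold, and in males it was 0.21 (standard error 0.0794, unadjusted p 0.0156). Sh3gl2 had -0.61 in females (edgeR, standard error 0.145, adjusted p 0.185). In males the smallest p belonged to Synpr, which encodes the vesicle protein synaptoporin, at 115 to 154 CPM in CD males and 128 to 278 CPM in KD males (log2 fold change 0.67, standard error 0.23, adjusted p 1.0 in edgeR). Sh3gl3 had the next smallest.

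Since the study asked about CREB, the factor that binds the cAMP response element, the letters of this element were searched in promoter windows of 300 bases. RefSeq windows were found for 30 of the 42 release genes, 41 windows in all. The full element TGACGTCA was in 1 of them, that of Syn1 (2.44% of these windows, beside 1.79% of 32851 windows of all genes). The half-site TGACG, which is also part of the full element, was on either strand in 10 windows of 10 genes (24.4%, beside 20.8% of all windows). The genes were Rab3a, Rab3b, Rab3d, Syt2, Syt10, Unc13a, Erc1, Stx1a, Cplx1 and Syn1. No window was found for Otof. A match describes the letters in the window only.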

How the data were processed

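Per the labels, total RNA of frozen cortex was sequenced, 1 library per mouse. The authors aligned reads to mm10 with STAR and deposited raw counts of reads per gene. The aligner version, the gene annotation and the counted strand are not given in the sources used here. Groups and library numbers, which form 2 series, came from the labels, where SD stands for the CD.

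From the deposited counts, differential expression was tested with edgeR 4.0.16 (R 4.3.3), by the quasi-likelihood test with robust dispersions, upper-quartile normalization, filterByExpr, the 4 groups and the library series, in all 20 libraries. Genes at FDR 0.1 (Benjamini-Hochberg over 15660 genes) and 1.5-fold were called. RUVg, which the authors used with settings not given, was run as an alternative with 1 factor. CPM were counts scaled to library totals, and levels between genes were divided by the exon length of GENCODE M21, in which 21780 of the 23413 names were found. Other alternatives were TMM and DESeq2 size factors, filters, thresholds, other tests (DESeq2 1.42.0), each sex or series alone, a striatal marker score as a covariate, and leaving out mice. Leaving out KD male E59 with E227 and E249, and the CPM scaled by factors for the overlap of groups, were chosen after the data were seen. As a check, counts of all 20 libraries were simulated from the same mean per gene in every group, without differences of series or tissue. In the KD females 200 genes were changed 2-fold, of which the fit recovered 70%, and it called 13 others. Exact permutation tests, 22 in all, were two-sided, on log2 CPM with a prior count of 2.

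The members and gene lists were chosen with earlier results of these data known. Values by library (for KD males the lowest, median and highest) are given for members called in any contrast or with an unadjusted p under 0.05 in the diet contrast of either sex or in the interaction; of the other presynaptic genes, those called, otherwise the 2 of smallest p per sex. Mice are the replicates. Interval and counting error of single libraries were not estimated, and SD and standard error cover the spread between mice together with counting error. The files held no rows for reads on no gene.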

Additional observations from a re-analysis of the deposited data

Results flagged for a closer look

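In the 44 groups of the 11 release genes given in full, the gap between the most extreme mouse and its nearest neighbour was compared with the range of the group. In 9 groups it passed the critical value of Dixon's test, where about 2.2 would by chance if CPM were normally distributed. The genes were chosen by their p and the same mice recur, so the 9 groups are not independent and their excess was not tested. CD female E249 stood apart in 4 genes. Its gap was 0.891 of the range of CD females for Syt10 (31.0 CPM, next 9.12), 0.807 for Unc13c (129 CPM, next 53.6), 0.836 for Sv2c (51.4 CPM, next 27.9) and, as the lowest, 0.808 for Snap25 (2808 CPM, next 4559). KD female E227 was the highest of its group in Sv2b (0.945 of the range; 1433 CPM, next 728), and KD male E59 the highest in Sv2c (0.888; 66.9 CPM, next 17.5). E249 and E59 have more striatal transcripts than the rest of their groups, and E227 fewer. KD male E64, which has the most hippocampal transcripts, was the highest in Otof (0.725; 32.2 CPM, next 18.8) and in Syt17 (0.631; 44.7 CPM, next 23.2). CD female E265 was the lowest in Rab3b (0.897; 19.1 CPM, next 31.4).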

How the results depend on the processing

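Of the 42 release genes, 2 were called in females by edgeR's quasi-likelihood test. Under RUVg (0.217% of all genes called) and under the likelihood ratio test (1.4%), Unc13c was called beside Otof and Rab3b. The count was 1 without the library series term and 0 with each sex fitted separately, within series 2 alone, with the score of striatal markers as a covariate and at an FDR of 0.05. The count was 7 within series 1 (where 5.42% of all genes were called) and 4 under DESeq2 (1.62%). The 7 were Rab3b, Rims1, Stx1a, Sv2b, Syn1, Unc13a and Unc13c, without Otof. Diet and striatal content cannot be told apart in these 7 calls. Without E227 and E249 the count was 14 (12.2%), and it was 14 without E59 as well (12.9%). With 1 mouse left out it was between 0 and 9, beside 0.0447% of all genes in the comparison as reported. It was 9 without CD female E249 (6.66%) and 7 without KD female E227 (5.68%). The interaction went from 0 to 4 without E227 and E249 (3.56% of all genes) and to 8 without E59 as well (6.16%), and was 0 to 1 with 1 mouse left out (1 without E227, with 0.257% of all genes). For the mean of both sexes, the count of 2 became 1 with no filter on low counts, 1 without the series term, 1 at an FDR of 0.05, 7 within series 1 (5.55% of all genes), 0 within series 2, 0 with the striatal covariate, 6 without E227 and E249 (7.83%) and 7 without E59 as well (7.63%), and it was 1 to 3 with 1 mouse left out. Of the other presynaptic genes, where 0 were called in females, 1 was called under RUVg, 20 within series 1, 5 under the likelihood ratio test (1.4% of all genes), 6 under DESeq2, 1 with no fold threshold, 28 without E227 and E249, 28 without E59 as well, and 0 to 18 with 1 mouse left out (18 without E249, 16 without E227). The log2 fold change of Sv2c in females turned to -0.34 with the striatal covariate; no other result that was recomputed changed its sign. The counts in males and between the sexes on the CD, and the members whose diet groups do not overlap, were within 1.5 times of the values given under each alternative run. The cause of these changes was not tested. No paired analysis was possible because the groups share no replicate numbers. At 4 to 6 mice per group, the 70% recovery of 2-fold changes in simulated counts limits what a missing call shows. The simulated libraries had no differences of series or tissue and held many changed genes, so recovery in these data may be lower.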
